A study of Mus musculus with 8 samples.

Results

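The receptors, decoys and inhibitors of interleukin 1 (IL-1) and interleukin 18 (IL-18) were described in mouse regulatory T cells (Tregs), the FoxP3-expressing CD4 T cells that hold immune responses in check. The genes were listed by name, and each was read from the probe set annotated to that symbol alone, or from the brightest where there were several. Of the 8 listed genes 7 were measured, each by 1 probe set, among 19937 genes in all; Il1r1, the signalling receptor chain of IL-1, was not analysed here. FoxP3-sorted Tregs came from animals labelled as Bcl6 knock-out (KO) and from wild-type (WT) animals, and in both groups the cells received anti-CD3 and anti-CD28 stimulation for 16 h. The repressor Bcl6 is a BTB zinc finger factor that directs follicular helper T cells. The labels give neither the strain, age or sex of the animals nor the design of the deleted allele, and the deletion is labelled for the animal and not for the Tregs alone. Each group held preparations 1 and 2, each with an array A and an array B, making 4 KO-labelled and 4 WT arrays. Nothing in the labels ties a preparation or a letter to a separate animal, and the p-values therefore cover the spread of these arrays alone, which can be technical. With so few arrays the precision of every value is limited.

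IL-1 signals through Il1r1 paired with the accessory chain Il1rap, and IL-18 through Il18r1 paired with Il18rap. Each pair brings together intracellular TIR domains that recruit the adaptor Myd88. The system is held back at several steps. Il1r2 binds IL-1 but has no TIR domain and so acts as a decoy, Il1rn occupies the IL-1 receptor without activating it, Il18bp is a secreted protein that captures IL-18, and Sigirr is a TIR-containing receptor that dampens signalling. Activated Tregs are known to carry Il1r2, and Tregs of non-lymphoid tissues the IL-18 receptor.

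Il1r2, Il18r1 and Il18rap lie in one cluster of receptor genes on chromosome 1, and the DNA around their starts is shown because these were the members with the largest differences between the groups. Each sequence holds 250 bases before and 50 after an annotated start, in RefSeq on GRCm38.p6, and is written 5′ to 3′ in the direction of the gene. Capitals mark matches to TTCCNNGAA, a core like that of sites bound by Bcl6 and STAT factors, searched on both strands.
Il1r2 chr1:40085843-40086142 (+ strand): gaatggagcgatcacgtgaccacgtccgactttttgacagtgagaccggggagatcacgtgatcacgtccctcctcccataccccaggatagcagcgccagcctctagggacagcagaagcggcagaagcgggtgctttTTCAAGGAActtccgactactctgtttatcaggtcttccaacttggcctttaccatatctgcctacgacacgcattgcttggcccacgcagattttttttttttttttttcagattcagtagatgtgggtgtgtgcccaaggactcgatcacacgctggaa
Il18r1 chr1:40465756-40466055 (+ strand): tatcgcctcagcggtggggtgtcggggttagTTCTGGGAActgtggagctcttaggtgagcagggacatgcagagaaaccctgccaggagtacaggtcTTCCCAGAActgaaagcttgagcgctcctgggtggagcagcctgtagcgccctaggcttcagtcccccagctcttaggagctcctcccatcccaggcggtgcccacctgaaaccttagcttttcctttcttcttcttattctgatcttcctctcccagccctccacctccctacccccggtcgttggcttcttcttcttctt
Il18rap chr1:40515112-40515411 (+ strand): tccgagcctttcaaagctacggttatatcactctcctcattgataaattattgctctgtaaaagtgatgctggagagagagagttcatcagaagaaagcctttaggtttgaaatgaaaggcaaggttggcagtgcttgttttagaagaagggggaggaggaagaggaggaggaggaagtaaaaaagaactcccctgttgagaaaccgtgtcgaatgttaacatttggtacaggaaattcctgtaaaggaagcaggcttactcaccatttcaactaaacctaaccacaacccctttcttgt

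The core was present 1 time in the Il1r2 window, on the opposite strand at bases -111 to -103 from the start. These letters were not in the Il18rap window. Il18r1 has 3 annotated windows, of which only the one shown held matches, 2 in number, at bases -219 to -211 on the opposite strand and at -152 to -144 on the gene's own strand. RefSeq windows were matched for 6 of the 7 measured members, 10 windows in all, and 2 windows held the core. Of all 32851 windows of the same 300 bases, 4.81% held it. A match of these letters is a description of the window and not of a bound site.

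The targeted gene and the arrays themselves were examined first. Bcl6 (probe set 10438738) had log2 levels of 9.0, 8.82, 8.54 and 8.51 in KO 1A, KO 1B, KO 2A and KO 2B, against 7.97, 8.36, 8.33 and 7.86 in WT 1A, WT 1B, WT 2A and WT 2B. It was not lower in the KO-labelled arrays, which all lay above the WT arrays, as in 6.67% of all genes. The log2 difference of Bcl6 was 0.59 (SE 0.29, adjusted p = 0.701 in limma). Since the place of its probes relative to the deletion is not given, the level is no check of the genotype. The group is called KO-labelled for that reason. The KO 1 arrays stood apart by a wider spread of log2 values over all probe sets, with SDs of 1.84 and 1.87, against 1.61 and 1.65 in the KO 2 arrays and 1.56 to 1.70 in the WT arrays. Treg markers were high in all arrays, with Foxp3 at 10.45 to 11.06 in KO-labelled and 9.65 to 10.27 in WT arrays. Averaged over Eif2s3y, Kdm5d and Uty, 3 Y-linked genes, log2 expression ran from 4.62 to 4.80 in KO-labelled arrays, against 6.94 to 8.30 in WT arrays. This level, which depends on the sex of the animals, moved with the genotype label in every result here. Sex and genotype therefore cannot be told apart, and the part of sex in the results was not tested.

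The decoy receptor Il1r2 was the member called higher in the KO-labelled Tregs. Il1r2 (probe set 10345752) had log2 levels of 9.68, 9.45, 8.59 and 8.65 in KO 1A, KO 1B, KO 2A and KO 2B, against 6.57, 7.25, 6.94 and 6.98 in WT 1A, WT 1B, WT 2A and WT 2B. The groups did not overlap, and the lowest KO-labelled value exceeded the highest WT value by 1.34. The KO 1 arrays were the highest, the KO 2 arrays next, and the ranges of the WT 1 and WT 2 arrays overlapped. Means were 9.09 ± 0.55 in KO-labelled Tregs and 6.93 ± 0.28 in WT Tregs (SD, n = 4 each). The fitted log2 difference was 2.16 (SE 0.34, 95% interval 1.41 to 2.91), a 4.47-fold rise, and passed with an adjusted p of 0.0308 in limma after Benjamini-Hochberg adjustment over all genes. It was 2.63 above the WT mean in KO 1, or 6.20-fold, and 1.69 above it in KO 2, or 3.22-fold. KO 1 thus exceeded KO 2 by 0.95, against a largest gap of 0.68 between the letters of a preparation, which was that of WT 1. Among the 24 genes called higher, Il1r2 had rank 13 by size of the difference. Its KO 2 difference was 64.1% of its KO 1 difference, where the median of those 24 genes was 67.2% and their range 48.9% to 146%. The fit counts disagreement between preparations against a call, so these shares follow in part from the selection of called genes.

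The size of the Il1r2 difference stayed between 1.69 and 2.63 in the 23 other fits, but the call did not hold in all of them. It ended when KO 1B (adjusted p = 0.0682), WT 2A (0.0880) or WT 2B (0.0805) was left out, without both WT 1 arrays (0.160) or both WT 2 arrays (0.999), after median centring of the arrays (0.117) and with no variance trend (0.0579). With the KO 1 arrays, which stood apart, left out and no random block, a setting chosen after seeing the data, KO 2 against WT gave 1.69. That fit keeps a single KO preparation and takes its arrays A and B as independent. It therefore does not cover the spread between KO preparations. In bulk RNA, more cells that express a gene and more RNA per cell cannot be told apart.

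**Figure D1:**
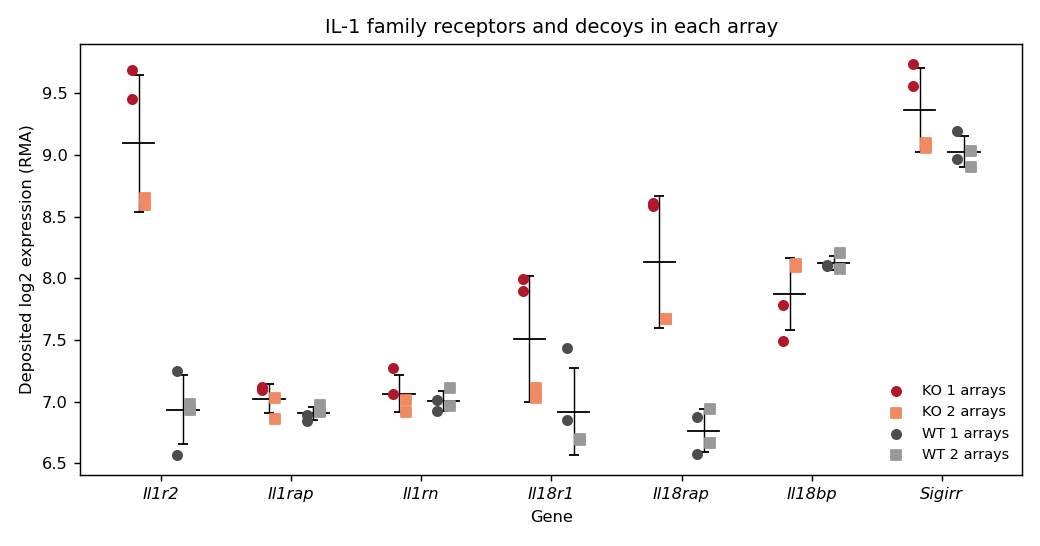
Deposited log2 expression (vertical axis) of the 7 measured genes (horizontal axis) in each array; red and orange points are KO 1 and KO 2 arrays, dark and light grey points WT 1 and WT 2 arrays, and bars the mean ± SD of 4 arrays. For Il1r2 and Il18rap the groups do not overlap, and heights of different genes are not comparable because each probe set has its own scale.

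The other IL-1 binding and blocking members did not pass the test. Il1rap (probe set 10434845), the shared accessory chain that also serves the IL-33 receptor, had log2 levels of 7.12, 7.10, 6.86 and 7.03 in KO 1A, KO 1B, KO 2A and KO 2B, against 6.90, 6.84, 6.97 and 6.92 in WT 1A, WT 1B, WT 2A and WT 2B. The groups overlapped, with KO 2A among the lowest arrays and both KO 1 arrays the highest. Its log2 difference was 0.12 (SE 0.19, 95% interval -0.30 to 0.54, adjusted p = 0.753 in limma). Il1rn (probe set 10469816), the receptor antagonist, had 7.27, 7.06, 6.91 and 7.02 in the KO-labelled arrays, in the same order, against 7.02, 6.92, 6.97 and 7.11 in the WT arrays. The groups overlapped over most of their range, and KO 1A alone lay above every WT array. The log2 difference of Il1rn was 0.061 (SE 0.21, 95% interval -0.39 to 0.51, adjusted p = 0.872 in limma). The upper bounds of both intervals lie below the lower bound of the Il1r2 difference.

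Of the IL-18 receptor chains, the accessory chain Il18rap separated the groups and the binding chain Il18r1 did not. Il18rap (probe set 10345824), which is needed for signalling once IL-18 is bound, had log2 levels of 8.61, 8.58, 7.67 and 7.67 in KO 1A, KO 1B, KO 2A and KO 2B, against 6.88, 6.58, 6.94 and 6.67 in WT 1A, WT 1B, WT 2A and WT 2B. The groups did not overlap, with a gap of 0.73 between their nearest arrays. The letters of a KO preparation lay within 0.029 of each other, KO 1 was 0.93 above KO 2, and WT 1 and WT 2 overlapped. Means were 8.13 ± 0.54 in KO-labelled Tregs and 6.77 ± 0.17 in WT Tregs (SD, n = 4 each), a 2.58-fold difference. The fitted log2 difference of 1.37 (SE 0.29, 95% interval 0.74 to 2.00) had an unadjusted p of 4.3e-04 in limma and did not pass over all genes (adjusted p = 0.139). It was 1.83 above the WT mean in KO 1 and 0.90 in KO 2. The call depended on the fit: the adjusted p was 0.0150 after quantile normalization and 0.0353 with no random block for preparations. With KO 1 left out and no random block, the difference was 0.90, from a single KO preparation whose arrays were taken as independent.

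Il18r1 (probe set 10345807), the chain that binds IL-18, had log2 levels of 8.00, 7.90, 7.11 and 7.03 in KO 1A, KO 1B, KO 2A and KO 2B, against 6.85, 7.43, 6.69 and 6.70 in WT 1A, WT 1B, WT 2A and WT 2B. The KO 1 arrays were above all others, while WT 1B lay above both KO 2 arrays. Means were 7.51 ± 0.51 in KO-labelled Tregs and 6.92 ± 0.35 in WT Tregs (SD, n = 4 each). The log2 difference was 0.59 (SE 0.32, 95% interval -0.10 to 1.28, adjusted p = 0.701 in limma), made up of 1.03 in KO 1 and 0.15 in KO 2. The KO 2 difference of 0.15 was smaller than the gap of 0.58 between WT 1A and WT 1B.

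The inhibitors that act on IL-18 or on TIR signalling did not pass either. Il18bp (probe set 10566050) had log2 levels of 7.50, 7.78, 8.09 and 8.11 in KO 1A, KO 1B, KO 2A and KO 2B, against 8.11, 8.10, 8.07 and 8.20 in WT 1A, WT 1B, WT 2A and WT 2B. It was the measured member with a difference below 0, and the low values were those of KO 1, with KO 2 inside the WT range. Its log2 difference was -0.25 (SE 0.24, 95% interval -0.77 to 0.27, adjusted p = 0.701 in limma), its KO 1 and KO 2 means lying -0.48 and -0.018 from the WT mean. Sigirr (probe set 10569024) had 9.74, 9.55, 9.06 and 9.10 in the KO-labelled arrays, in the same order, against 8.96, 9.20, 9.03 and 8.90 in the WT arrays. The KO 1 arrays were above all others and the KO 2 arrays inside the WT range. The log2 difference of Sigirr was 0.34 (SE 0.27, 95% interval -0.24 to 0.92, adjusted p = 0.701 in limma), its KO 1 and KO 2 means lying 0.62 and 0.053 from the WT mean. After quantile normalization the difference was 0.042 (SE 0.12) for Sigirr and -0.36 (SE 0.19) for Il18bp.

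**Figure D2:**
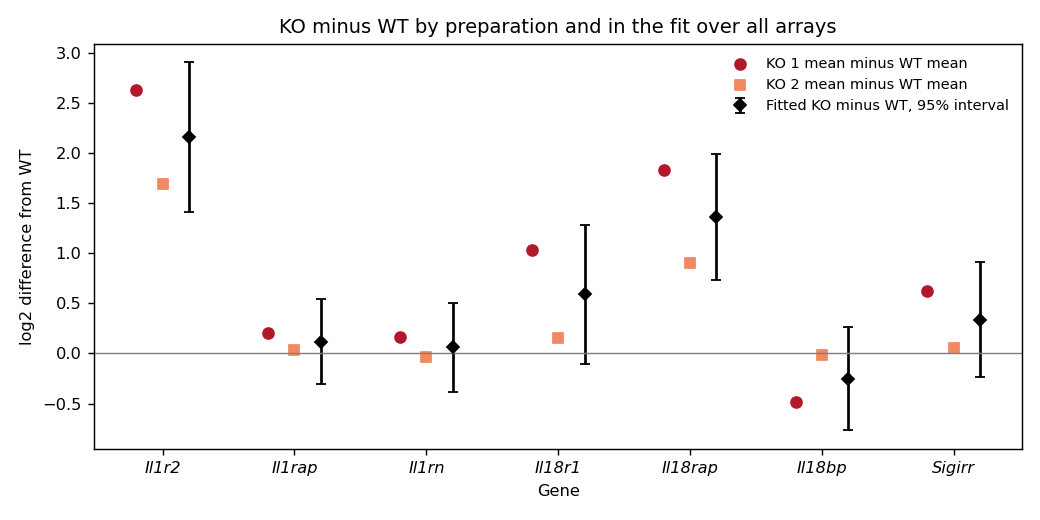
The log2 difference from the WT mean (vertical axis) of each gene (horizontal axis) in KO 1 (red circles) and KO 2 (orange squares), beside the fitted KO minus WT difference over all arrays with its 95% interval (black diamonds). The intervals of Il1r2 (1.41 to 2.91) and Il18rap (0.74 to 2.00) lie above 0 and the other 5 include it.

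Across the 7 measured members, limma called 1 higher and 0 lower, where 0.120% of all genes were called higher and 0.0150% lower. Over the whole table that was 24 genes higher and 3 lower, or 121 and 36 after quantile normalization. At an unadjusted p under 0.05, 2 members were higher and 0 lower, where the shares of all genes were 5.65% and 0.542%. The KO-labelled arrays lay wholly above the WT arrays in 2 members, as in 6.67% of all genes, and wholly below in 0, as in 2.11%. The members were chosen with earlier results of these data known, so these counts beside the shares are descriptions and not tests. The median difference was 0.34 over the members, which is the value of Sigirr, and -0.063 over all genes. By preparation the median member lay 0.62 (KO 1) and 0.053 (KO 2) from the WT mean, where the medians over all genes were -0.13 and 0.020. The distance of KO 1 from WT was larger than that of KO 2 for each of the 7 genes, and KO 1 was the preparation with the wide spread of log2 values. After quantile normalization, which gives all arrays 1 distribution of values, the difference was 2.08 (SE 0.26, adjusted p = 0.00506) for Il1r2 and 1.28 (SE 0.19, adjusted p = 0.0150) for Il18rap. It was 0.55 for Il18r1, 0.20 for Il1rap, 0.12 for Il1rn, 0.042 for Sigirr and -0.36 for Il18bp.

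Since Il1r2 is also made by myeloid cells, markers of other cell types were read in the same arrays. The mean log2 level of 7 neutrophil markers was 6.20 to 6.48 in KO-labelled and 6.13 to 6.53 in WT arrays, and that of 6 macrophage and monocyte markers 6.36 to 6.54 in KO-labelled and 6.28 to 6.54 in WT arrays. The ranges overlapped for both lists, and limma called 0 of their genes, with 0 of the neutrophil and 1 of the macrophage markers above WT in all KO-labelled arrays. That gene was Lyz2, the lysozyme of myeloid cells, at 6.65 to 7.23 in KO-labelled and 6.39 to 6.63 in WT arrays (log2 difference 0.35, SE 0.26, adjusted p = 0.701). The lists for B cells, dendritic cells, NK cells, CD8 T cells and mast cells also overlapped between the groups and held 0 called genes. RMA levels have no true 0, so none of these markers can be said to be absent.

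The Treg marker list stood higher in the KO-labelled arrays, as Il1r2 and Il18rap did. Its mean log2 level over 8 genes was 10.29 to 11.07 in KO-labelled and 9.48 to 10.24 in WT arrays, so the groups did not overlap, with the KO 1 arrays again highest. Limma called 0 of the 8 genes, where 0.120% of all genes were called higher. In 5 of the 8 the KO-labelled arrays lay wholly above the WT arrays, as in 6.67% of all genes. These were Foxp3, Il2ra, Ctla4, Tnfrsf18 and Tigit, with unadjusted p of 0.025, 0.0073, 0.037, 0.035 and 0.0015 in limma. Of all genes, 5.65% were higher at an unadjusted p under 0.05. Ikzf2, Lrrc32 and Izumo1r overlapped between the groups, with log2 differences of 0.55, 0.30 and 0.054, so the list did not move as 1. The list of general T cell markers, 5 genes measured, overlapped, at 10.66 to 11.12 in KO-labelled and 10.29 to 10.95 in WT arrays. The part of these levels in the Il1r2 and Il18rap differences was not tested.

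The genes around Il1r2 on chromosome 1 were compared because 3 measured members neighbour each other there. In the GRCm38.p6 gene order the cluster runs Il1r2, Il1r1, Il1rl2, Il1rl1, Il18r1 and Il18rap, of which 4 were measured. Il1rl2, the receptor of IL-36, lies between Il1r2 and Il18r1 and had log2 levels of 4.97 to 5.36 in KO-labelled and 5.33 to 5.56 in WT arrays. Its log2 difference was -0.29 (SE 0.15, adjusted p = 0.701 in limma), its KO 1 and KO 2 means lying -0.45 and -0.14 from the WT mean. The 3 measured genes flanking the cluster, Map4k4 on the side of Il1r2 and Slc9a4 and Slc9a2 on the side of Il18rap, had differences of -0.063, -0.20 and -0.25, and none passed the test. Their mean levels in KO-labelled and WT arrays were 8.54 and 8.61 (Map4k4), 6.11 and 6.31 (Slc9a4) and 5.70 and 5.95 (Slc9a2). Slc9a4, Slc9a2 and Il1rl2 lay below the median of every array, the lowest of which was 6.80 in KO 1A. Whether genes at such levels could show a difference was not tested. Among the 4 measured genes of the cluster, the differences above 0 were those of Il1r2, Il18r1 and Il18rap, and the interval of Il18r1 included 0. These neighbours were chosen after values had been seen.

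**Figure D3:**
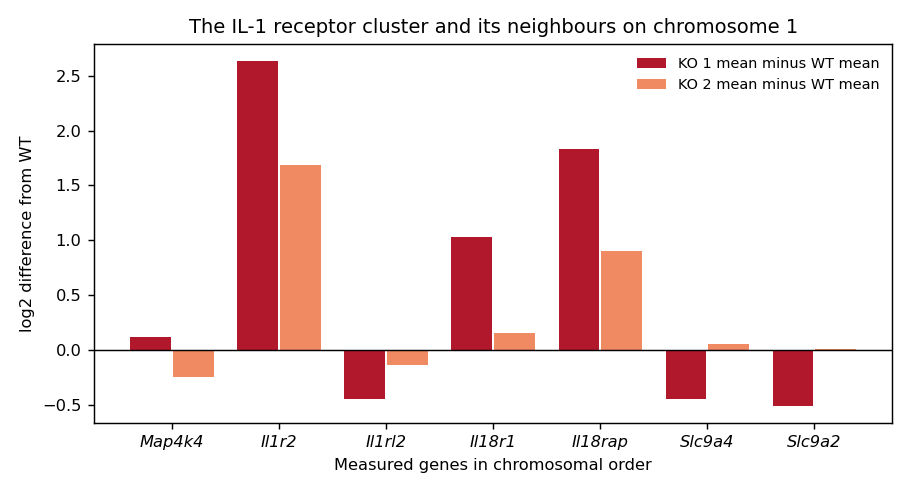
Difference from the WT mean (vertical axis, log2) in KO 1 (red bars) and KO 2 (orange bars) for the measured genes of the cluster and its flanks, in chromosomal order (horizontal axis, not to distance). Il1r2 at 2.63 and 1.69 and Il18rap at 1.83 and 0.90 stand above the flanking genes, which lie between -0.51 and 0.12.

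The remaining genes of the pathway were taken from lists written from textbook knowledge, with earlier results of these data known. Their counts beside the shares of all genes are therefore descriptions and not tests. Of 9 ligand genes of the IL-1 family, 0 were called in either direction, also at an unadjusted p under 0.05, and their median difference was -0.097. Those with the largest differences were Il1f6 (now Il36a) at -0.32 and Il1f5 (now Il36rn), the IL-36 receptor antagonist, at -0.31. Il1b and Il18, a ligand of each receptor pair, differed by -0.083 and -0.097, at mean levels of 6.84 and 4.98 in KO-labelled and 6.92 and 5.08 in WT arrays. Of the 3 other receptor chains measured, 0 were called, and beside Il1rl2 the larger difference was that of Il1rapl2, a receptor-like chain, at 0.063.

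Of 20 measured genes that carry the signal from the receptors or restrain it, limma called 0. The list was not split by role, so its counts and medians cover both kinds of gene. At an unadjusted p under 0.05, 3 were higher and 0 lower, where the shares of all genes were 5.65% and 0.542%. They had a median difference of 0.25, the KO 1 median being 0.58 and the KO 2 median 0.0043, where the medians over all genes were -0.13 and 0.020. In KO 1, 18 of the 20 were above 0, as were 8513 of all 19937 genes, and in KO 2 10 of the 20 were, as were 11300 of all genes. KO 1 was the preparation with the wide spread of log2 values. No list here was compared with genes of similar level, and the part of this spread in the KO 1 values was not tested. The largest differences were those of Ube2n, an enzyme of ubiquitin chains that activates the kinase step, at 0.93 (SE 0.41, adjusted p = 0.701), and of Nfkbia, the NF-kB inhibitor that NF-kB itself induces, at 0.86 (SE 0.33, adjusted p = 0.697). Nfkbia was at 10.40, 10.19, 9.60 and 9.54 in KO 1A, KO 1B, KO 2A and KO 2B, against 8.91, 9.38, 9.21 and 8.78 in WT 1A, WT 1B, WT 2A and WT 2B, without overlap. Beside Ube2n and Nfkbia, the gene higher at an unadjusted p under 0.05 was the adaptor Myd88. Its log2 difference was 0.84 (SE 0.32, adjusted p = 0.695 in limma), with 1.34 in KO 1 and 0.33 in KO 2.

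Among 7 genes of IL-1 and IL-18 maturation limma called 0, and 1 was higher at an unadjusted p under 0.05, as were 5.65% of all genes. This was Casp1, the protease that cleaves both cytokine precursors. Casp1 (probe set 10582985) had log2 levels of 6.62, 6.33, 6.21 and 6.22 in KO 1A, KO 1B, KO 2A and KO 2B, against 5.33, 5.17, 5.45 and 5.53 in WT 1A, WT 1B, WT 2A and WT 2B. The groups did not overlap, and KO 2 at 0.84 above the WT mean was near KO 1 at 1.11. The log2 difference of 0.98 (SE 0.19, 95% interval 0.57 to 1.38) did not pass (adjusted p = 0.0778 in limma). Gsdmd, the pore-forming gasdermin D, differed by 0.58 (SE 0.30), which did not pass (adjusted p = 0.701); KO 1 was 1.08 and KO 2 0.084 above the WT mean. The median of the list was 0.45.

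**Figure D4:**
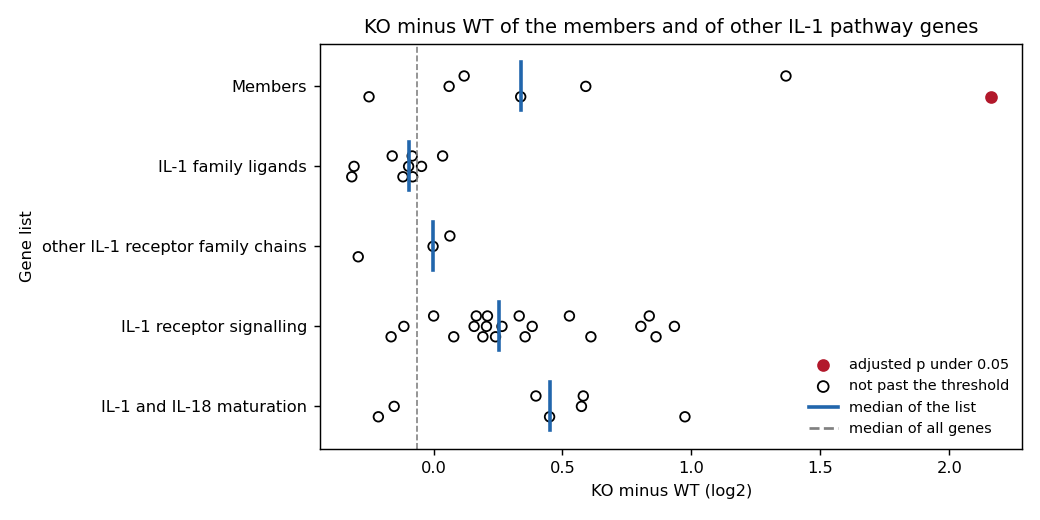
KO minus WT difference (horizontal axis, log2) of each gene in 5 lists (vertical axis); filled red points passed an adjusted p of 0.05, open points did not, blue lines are list medians and the dashed line the median of all genes at -0.063. Il1r2 at 2.16 is the filled point, and the list medians are 0.34 for the members, -0.097 for ligands, -0.0018 for other chains, 0.25 for signalling and 0.45 for maturation.

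For the members with the largest differences, the genes with the most similar profile were sought by the root mean square difference of log2 values, each centred on its gene's mean, over the 8 arrays. Nearest to Il1r2 were Car5b, a mitochondrial carbonic anhydrase, at 0.0959 and Fgl2, a fibrinogen-like protein that Tregs secrete, at 0.150, where the median over all genes was 1.20. The log2 difference of Car5b was 2.24 (SE 0.29, adjusted p = 0.00851 in limma) and that of Fgl2 2.06 (SE 0.33, adjusted p = 0.0328). Nearest to Il18rap were Egln3, an oxygen-sensing prolyl hydroxylase, at 0.101 and Pclaf, a PCNA-binding factor of DNA replication, at 0.110, against a median of 0.822. Egln3 differed by 1.38 and Pclaf by 1.32, with 1.93 and 1.85 in KO 1 and 0.84 and 0.80 in KO 2, and neither passed the test (adjusted p = 0.186 and 0.251 in limma).

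**Figure D5:**
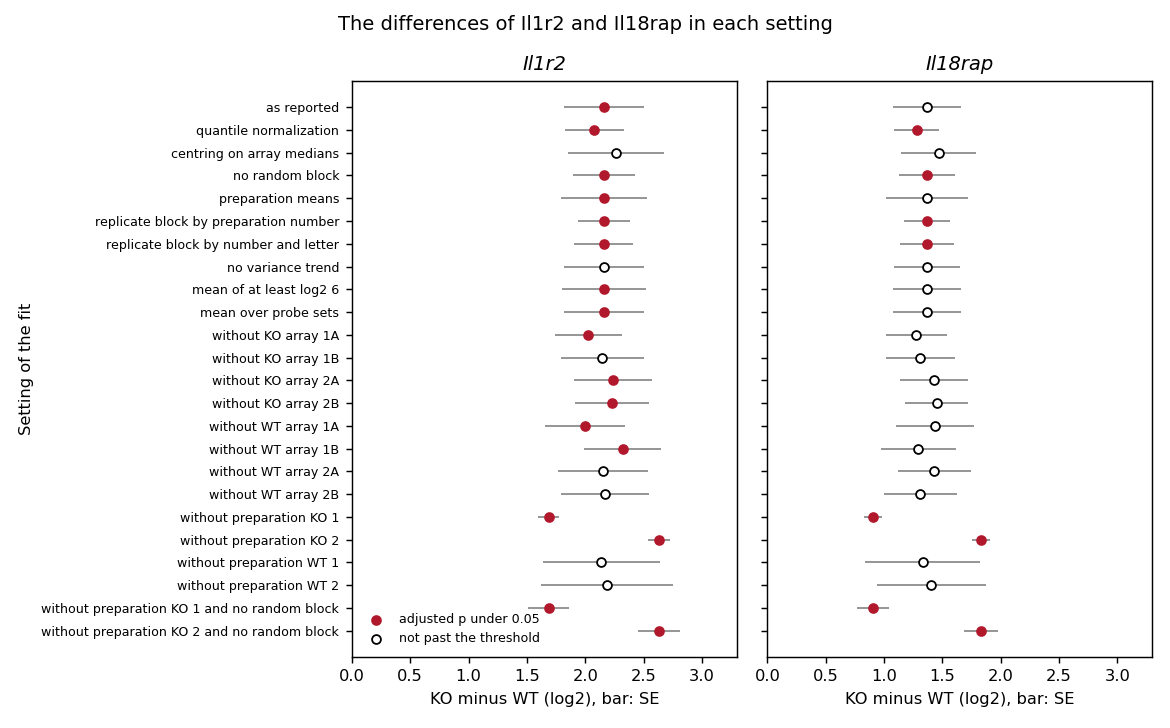
The log2 difference of Il1r2 and Il18rap with its SE (horizontal axis) in the reported fit and in each other setting (vertical axis); filled red points passed an adjusted p of 0.05 and open points did not. Il1r2 passed in 16 of the 23 other settings and Il18rap in 8. These include the settings without KO 2, where 7234 genes were called higher with the random block and 5997 without it. All values lie above 0, which was fixed for fits that leave out arrays because the groups do not overlap for these genes.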

How the data were processed

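Expression was deposited as log2 values, 1 per probe set; the authors used Partek and RMA, according to the submitters' processing notes. RMA commonly corrects background, normalizes between arrays and summarises probes, and probe affinities differ, so levels of different genes are not comparable. Total RNA, 100 ng a sample, was labelled by the Affymetrix whole-transcript protocol, per the labels' protocols. For tool versions and filters, the sources used here give nothing. The table held 28768 probe sets in 8 arrays with 0 missing values and 0 columns left unused, and was used with no further normalization.

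Gene names are those of the platform annotation, some possibly outdated: 21771 probe sets had 1 symbol, 1557 several and 5440 none in that table. Single-symbol probe sets entered the test, and for 999 genes the one with the highest mean was used. The test of KO minus WT used limma 3.58.1 (lmFit, eBayes with a variance trend; R 4.3.3), with the preparation as a random block (estimated correlation 0.617) and 12.8 degrees of freedom. Calls needed a two-sided adjusted p under 0.05. SE is that of the fitted difference, and intervals are 95%. The fit was tested on simulated data, where it recovered the size of differences but estimated the block correlation too low and made more false calls than the threshold allows, so calls near the threshold are less certain than their adjusted p.

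Named were all members, Bcl6, the 2 genes of each pathway list with the largest differences and any called, and the 2 genes most like each of the 2 members with the largest differences; other genes were named after their values were seen. Alternatives covered scaling, preparations, replicate numbers, the variance trend, a filter at log2 6, probe sets, and leaving out arrays or preparations. The members and lists were chosen with earlier results of these data known. Irak4, Chuk, Nfkb1 and Il1rl1 were not analysed here.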

Additional observations from a re-analysis of the deposited data

How the results depend on the processing

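Of 7 measured members 1 was called higher and 0 lower. The count of higher members was 2 after quantile normalization and with no random block, and 0 after centring on array medians or with no variance trend. It was 0 to 1 when single arrays were left out, 2 without preparation KO 1, 5 without KO 2, 0 without WT 1 and 0 without WT 2; with no random block, a choice made after seeing the data, it was 2 without KO 1 and 4 without KO 2. The count of lower members was 1 without KO 2 with or without the random block. It was 0 in the other settings. The second gene was Il18rap in each setting with 2 calls. Fits without KO 1 or KO 2 keep a single KO preparation, so their counts do not cover the spread between KO preparations.

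The groups share replicate numbers, and with a replicate block by preparation number, or by number and letter, 2 members were higher, with adjusted p of 0.00572 and 0.0351 for Il18rap. The labels do not say that numbers pair samples, and same-numbered arrays did not deviate together in every pair: the correlation of their deviations was above 0 for 1B (0.771) and 2B (0.682) and below 0 for 1A (-0.691) and 2A (-0.42).

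The difference of Il1rn was -0.00036 without KO 1A, the lowest of a range up to 0.097 over the fits that left out 1 array, and -0.040 without KO 1 with or without the random block; the other 6 members kept their sign in all 23 settings. Genes called higher and lower over the whole table, 24 and 3 as reported, were 121 and 36 after quantile normalization, 12 and 2 after centring, 92 and 21 with no random block, 620 and 57 or 98 and 15 with the replicate blocks, and 45 and 7 on preparation means. Leaving out 1 array gave 13 to 51 and 2 to 6. The counts were 1124 and 341 without KO 1, 7234 and 9666 without KO 2, where the estimated block correlation was -0.629 and -0.642, and 8 and 4 without WT 1. Without WT 2 limma called 0 genes, with 200 at an unadjusted p under 0.05. With no random block they were 128 and 16 without KO 1 and 5997 and 7381 without KO 2. The cause was not tested. The number of arrays limits what can be detected, and signal over background is not given by these values.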
